A study of Sus scrofa with 18 samples.

Results

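Glucose is the main fuel of the brain, and 10 genes of its uptake and breakdown were followed here through the second part of pig gestation. They were the glucose transporter genes SLC2A1 and SLC2A3, the monocarboxylate transporter genes SLC16A1 and SLC16A7, the hexokinase genes HK1 and HK2, the regulatory gene PFKFB3, the pyruvate kinase gene PKM, and the lactate dehydrogenase genes LDHA and LDHB. They were chosen by name among the 31908 genes of a table of read counts. Of the 10 genes, 7 were listed there under their own name and 3 (SLC2A1, SLC2A3 and PKM) were missing by name and were located by gene identifier or position. The row that carried the name LDHB was not that of the multi-exon gene, which was also located by position.

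Whole brains of fetuses of Landrace x Large White gilts, bred by artificial insemination to LR-M6 boars, were sequenced at gestation days (GD) 45, 60 and 90. No treatment was given, and each day was represented by 3 female and 3 male fetuses, 18 libraries in all. Fetuses are named by their sex, their day and a piglet number, called the replicate. Within a day, the labels gave each female a male with the same litter size, so that the 18 fetuses fell into 9 presumed litters of 1 female and 1 male. Where littermates were tested as separate libraries, the p-values measured the spread between libraries rather than between litters.

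Glucose crosses the blood-brain barrier through GLUT1 (SLC2A1) and enters neurons largely through GLUT3 (SLC2A3). Hexokinase traps it in the cell, PFKFB3 makes the signal that speeds phosphofructokinase, and pyruvate kinase delivers pyruvate at the end of glycolysis. Lactate dehydrogenase interconverts pyruvate and lactate, with LDHA (the muscle subunit) usually tied to lactate formation and LDHB (the heart subunit) to lactate use, while the monocarboxylate transporters MCT1 (SLC16A1) and MCT2 (SLC16A7) carry lactate, pyruvate and ketone bodies across membranes.

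The clearest change with gestation was in lactate dehydrogenase. LDHA rose at each step, from a median of 136 CPM at GD45 to 187 at GD60 and 446 at GD90, whereas LDHB, with medians of 539, 445 and 506 CPM, did not pass the test at either step. Between GD60 and GD90, SLC16A1, SLC2A3 and HK1 also rose and HK2 fell. CPM is the count of a gene scaled to a library of 1e6 counts on genes, and a change was called when edgeR's quasi-likelihood test gave an adjusted p under 0.05 over all 16328 rows tested.

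Library totals ranged from 15118843 to 19729783 counts on genes, with a median of 16413097. The brain label was matched by neuron genes, since all 8 neuron markers examined were detected and their summed level ranged from 6654 to 7947 CPM at GD45, 7887 to 9959 at GD60 and 8826 to 10094 at GD90. The library of male GD45 replicate 17 stood apart in scaling, with a TMM factor of 0.848 against 0.943 to 1.07 in the other 17. Replicates 17 and 18, of the GD45 litter of 8, had the lowest labelled brain weights of that day.

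The rows behind the names needed care, most of all for LDHB. The row named LDHB was a single exon of 1360 bases on the minus strand of chromosome 2 (chr2:12988708-12990067, Sscrofa11.1). RefSeq annotates that place both as a partial LDHB gene and as a lactate dehydrogenase B pseudogene. The LDHB gene with 9 exons lay unnamed on the plus strand of chromosome 5 (chr5:51810943-51831217), and it held 6190 to 10831 counts per library. Values given for LDHB are those of chromosome 5 unless the chromosome 2 row is named. Both coding sequences were read from the RefSeq genome of the same build, 1005 bases each, and 8 bases differed between them, so that they were 99.2% identical with a longest run of 260 identical bases. A read that lies wholly within identical bases, such as the run of 260, fits both coding sequences equally well. The stretch with the most differences, coding bases 748 to 897, is shown. Capitals mark the 3 bases that differ. The chromosome 5 stretch is spliced across an intron (chr5:51828996-51830909, plus strand), and the chromosome 2 stretch is continuous (chr2:12989058-12989207, minus strand).
LDHB, chromosome 5: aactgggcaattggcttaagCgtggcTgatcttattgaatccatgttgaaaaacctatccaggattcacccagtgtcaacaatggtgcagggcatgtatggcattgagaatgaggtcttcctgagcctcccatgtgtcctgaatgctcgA
LDHB row, chromosome 2: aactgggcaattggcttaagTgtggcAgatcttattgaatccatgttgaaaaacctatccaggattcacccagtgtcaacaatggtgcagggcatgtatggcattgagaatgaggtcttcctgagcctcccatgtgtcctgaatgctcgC

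In both, the first stop of the reading frame was at codon 335, the last. Reads that match both places were treated by the counting in a way not given in the sources used here, so the level of either row may miss or hold reads of the other.

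The chromosome 2 row split the libraries into separate sets that followed neither day nor sex. Counts were 16 to 51 in 9 libraries and 326 to 883 in the other 9. At each day 3 of the 6 libraries were in the higher set, which held 5 females and 4 males, and in 3 of the 9 presumed litters the littermates fell on different sides. The row held 0.258% to 9.85% of the counts of both LDHB rows. Its log2 fold change between days was -0.56 ± 1.06 (SE) at GD60 against GD45 and 0.01 ± 1.06 at GD90 against GD60, and edgeR's quasi-likelihood test gave adjusted p of 0.768 and 0.994. The plot of the LDHB rows sets these counts beside those of the gene on chromosome 5.

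**Figure D1:**
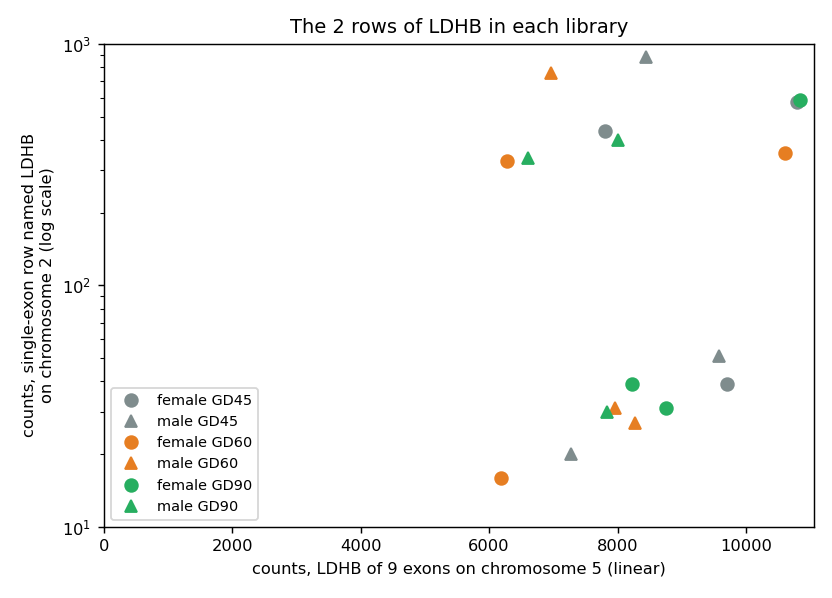
Counts of the single-exon row named LDHB on chromosome 2 (log scale) against counts of the 9-exon LDHB gene on chromosome 5 (linear scale), 1 point per library, with colour for the day and shape for the sex. The points form an upper set of 9 libraries at 326 to 883 counts and a lower set of 9 at 16 to 51, each with all 3 days, while the chromosome 5 counts of the upper set span 6279 to 10831.

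SLC2A1 had no row of its own. Its exons (chr6:168534655-168561165, plus strand) were counted within the row named P3H1, and the 18 exons at the RefSeq position of SLC2A1, 12 of them with counts, were summed from the exon table. That sum held 14977 counts over the 18 libraries, against 7077 in the P3H1 exons past SLC2A1. The sum is set against itself between days and is not comparable in level with the gene rows.

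SLC2A1 did not pass the test at either step. Its exon sum ranged from 24.3 CPM to 60.4 with a median of 51.6 at GD45, from 40.1 to 50.7 with a median of 46.0 at GD60, and from 48.2 to 66.4 with a median of 54.3 at GD90. The days overlapped, although 5 of the 6 GD90 libraries lay above all GD60 libraries, and the lowest value was that of male GD45 replicate 17. On the log2 scale the change was -0.04 ± 0.13 (SE, adjusted p = 0.86) at GD60 against GD45 and 0.29 ± 0.13 (adjusted p = 0.0889) at GD90 against GD60 by edgeR's quasi-likelihood test. Without male GD45 replicate 17, which belongs to neither day but enters the shared estimate of the spread, the second difference passed with an adjusted p of 0.0076. It also passed when the fit held only the libraries of GD60 and GD90 (adjusted p = 0.0122).

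SLC2A3, counted on an unnamed row at the RefSeq position of the gene (chr5:62963643-63041740, minus strand), dipped at GD60 and was higher again at GD90. It ranged from 77.0 to 103 CPM with a median of 92.6 at GD45, from 71.7 to 79.4 with a median of 76.4 at GD60, and from 85.7 to 106 with a median of 94.7 at GD90. GD45 and GD60 overlapped, but all 6 GD90 libraries lay above all 6 GD60 libraries. The log2 fold change was -0.26 ± 0.08 (adjusted p = 0.0281) at the first step and 0.35 ± 0.08 (adjusted p = 0.00138) at the second, both called by edgeR. The fall was the less firm of these calls. Its adjusted p was 0.0556 to 0.0744 when any single library among female GD45 replicates 12 and 18, male GD45 replicate 14, female GD60 replicates 3 and 5 and male GD60 replicate 6 was left out, 0.055 without male GD60 replicate 4, and 0.103 with littermates summed.

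Among the lactate carriers, SLC16A1 rose late (chr4:107494463-107641703, plus strand). MCT1, its product, is found on brain endothelium and glia. It ranged from 25.9 to 43.1 CPM with a median of 38.5 at GD45, from 23.3 to 39.5 with a median of 31.2 at GD60, and from 52.6 to 58.3 with a median of 54.4 at GD90. The GD90 libraries were close together and all lay above every earlier library. The log2 fold change at GD90 against GD60 was 0.88 ± 0.11 (1.84-fold, adjusted p = 6.37e-06, edgeR), and it was 0.85 ± 0.15 in females and 0.92 ± 0.15 in males. At GD60 against GD45 it was -0.28 ± 0.11 (adjusted p = 0.0918), which passed without male GD60 replicate 4 (adjusted p = 0.0118) or male GD45 replicate 17 (adjusted p = 0.0275). The row also covers a second copy annotated by RefSeq, but the exon table held 8885 counts on the exons of the first copy and 238 on those of the second. A row on the other strand covers 6.99% of its exon bases.

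SLC16A7, which encodes the high-affinity, largely neuronal carrier MCT2, was barely detected (chr5:24713267-24875003, plus strand). It held 8 to 47 counts per library, and its medians were 0.956 CPM at GD45, 0.984 at GD60 and 1.47 at GD90, with ranges that overlapped (0.455 to 1.83, 0.659 to 1.65 and 0.777 to 3.11). Over both sexes it was not called at either step (log2 fold change -0.02 ± 0.30, adjusted p = 0.979, and 0.58 ± 0.29, adjusted p = 0.116, edgeR). The GD90 libraries divided by sex. The males had 31, 39 and 47 counts (1.84, 2.40 and 3.11 CPM), and the females 12, 14 and 17 counts (0.777, 0.794 and 1.09 CPM). In males the difference from GD60 was called, with a log2 fold change of 1.45 ± 0.40 and an adjusted p of 0.0109, which became 0.0522 without male GD60 replicate 16 and 0.0506 without male GD90 replicate 10. The test of the difference between the sexes itself did not pass (interaction log2 1.74 ± 0.58, adjusted p = 0.202), nor did males against females at GD90 (log2 1.40 ± 0.40, adjusted p = 0.35).

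**Figure D2:**
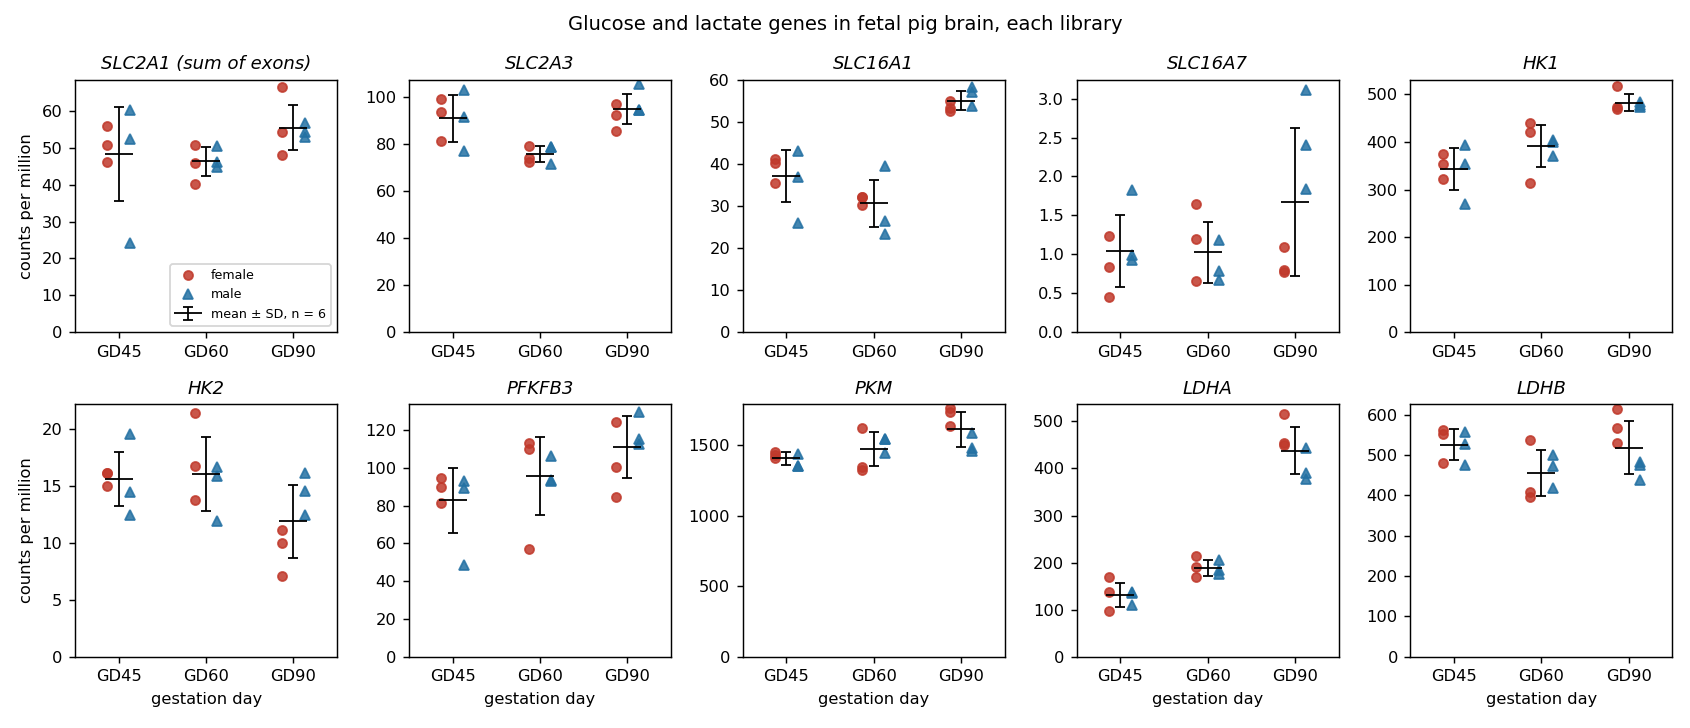
CPM (linear axes from 0) of the 10 genes in each of the 18 libraries by gestation day, with red circles for females, blue triangles for males, and the black dash and bar for the mean ± SD of 6 libraries. LDHA, SLC16A1, SLC2A3 and HK1 at GD90 lie above all GD60 libraries (LDHA 377 to 515 against 169 to 214), and the GD90 females lie below the males in HK2 and SLC16A7.

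HK1, the hexokinase of neurons and most other brain cells, was far the more abundant of the pair (chr14:72351149-72460925, plus strand). It ranged from 269 to 393 CPM with a median of 353 at GD45, from 313 to 440 with a median of 402 at GD60, and from 469 to 518.5 with a median of 476 at GD90. Each GD90 library exceeded every earlier library. Its log2 fold change was 0.19 ± 0.08 (adjusted p = 0.14) at GD60 against GD45 and 0.34 ± 0.08 (adjusted p = 0.00349) at GD90 against GD60 by edgeR. The first of these passed without female GD60 replicate 15 (adjusted p = 0.0439).

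HK2, the inducible hexokinase (chr3:68145890-68231615, minus strand), fell between GD60 and GD90. It ranged from 12.4 to 19.5 CPM with a median of 15.5 at GD45, from 11.9 to 21.4 with a median of 16.2 at GD60, and from 7.06 to 16.1 with a median of 11.8 at GD90. The days overlapped, and only 3 of the 6 GD90 libraries lay below all GD60 libraries; these were the females, with 109, 172 and 177 counts, while the males, at 12.4, 14.5 and 16.1 CPM, had 202, 219 and 272 counts. At GD60 against GD45 the log2 fold change was 0.03 ± 0.14 (adjusted p = 0.905, edgeR). From GD60 to GD90 it was -0.42 ± 0.14 (adjusted p = 0.0226, edgeR) over both sexes, -0.78 ± 0.20 (adjusted p = 0.00752) in females and -0.06 ± 0.20 (adjusted p = 0.838) in males. The interaction was 0.72 ± 0.28 with an adjusted p of 0.214, so a difference between the sexes did not pass. The call over both sexes was lost without female GD60 replicate 3 (adjusted p = 0.0681), male GD60 replicate 16 (0.0533), female GD90 replicate 9 (0.0638) or male GD90 replicate 8 (0.0543).

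The HK1 to HK2 ratio widened late. Per exon length, HK1 exceeded HK2 by a median of 18.3 times at GD45 (lowest 16.7), of 20.8 times at GD60 (17.2 to 26.2) and of 35.7 times at GD90 (25.1 to 56.0). GD60 and GD90 overlapped, since male GD60 replicate 6 lay above male GD90 replicate 1. The mean log2 ratio of counts was 4.47 ± 0.14 (SD, n = 6) at GD45, 4.63 ± 0.20 at GD60 and 5.39 ± 0.42 at GD90. The step to GD90 was 0.76 on the log2 scale (two-sided exact permutation p = 0.00433, adjusted over 4 ratio tests 0.00577). The step to GD60 was 0.16 (exact permutation p = 0.132, adjusted 0.132), and it passed without female GD60 replicate 3 (0.21, adjusted exact permutation p = 0.0368). At GD90 the mean log2 ratio was 5.72 ± 0.30 (SD, n = 3) in females and 5.07 ± 0.18 in males, a difference that was not tested for the ratio.

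PFKFB3, whose product makes the activator of phosphofructokinase, was not called at either step (chr10:64776315-64859051, minus strand). Its medians were 89.6, 100 and 114 CPM at GD45, GD60 and GD90, and the days overlapped (48.8 to 94.8, 57.0 to 113 and 84.6 to 130). The log2 fold changes were 0.21 ± 0.14 (adjusted p = 0.338) and 0.25 ± 0.14 (adjusted p = 0.167) by edgeR. The lowest library at GD45 was male replicate 17 and the lowest at GD60 was female replicate 15, each well below the others of its day.

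PKM was found by its gene identifier (chr7:60971823-61033803, plus strand), and what it showed depended on which exons were read. On the gene row it ranged from 1347 to 1453 CPM with a median of 1417 at GD45, from 1321 to 1620 with a median of 1492 at GD60, and from 1459 to 1765 with a median of 1611.5 at GD90. The days overlapped and neither step was called, with log2 fold changes of 0.06 ± 0.10 (adjusted p = 0.721) and 0.16 ± 0.10 (adjusted p = 0.196, edgeR). The second step passed without female GD60 replicate 15 (adjusted p = 0.048). The row spans upstream exons as well, because 9 of the 22 PKM transcripts in RefSeq end before the body of the gene and share 0 intervals with the 7 exons common to the other 13.

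Read on those 7 common exons, of which 4 had counts, PKM rose between GD60 and GD90. In the exon table these exons held 59816 counts over the 18 libraries and the upstream exons 11338, against 447864 on the gene row. The called rise therefore rests on a small part of the counts of PKM. What set the gene row apart from these exons was not tested. The sum of these exons ranged from 172 to 204 CPM with a median of 188 at GD60 and from 223 to 250 with a median of 243 at GD90, and the days did not overlap. The log2 fold change was 0.38 ± 0.07 with an adjusted p of 0.000366 (edgeR), and at GD60 against GD45 it was 0.14 ± 0.07 with an adjusted p of 0.185. The upstream exons gave -0.31 ± 0.19 (adjusted p = 0.21) at GD90 against GD60 over both sexes, 0.18 ± 0.27 (adjusted p = 0.653) in females and -0.80 ± 0.27 (adjusted p = 0.031) in males. The interaction of sex and day was -0.98 ± 0.38 and did not pass (adjusted p = 0.215). The mutually exclusive exons that set PKM1 apart from PKM2, 167 bases each at chr7:61028764-61028930 and chr7:61029321-61029487, held 0 counts in the exon table in every library, so no isoform share was computed.

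LDHA rose at both steps (chr2:40812453-40826715, minus strand). It ranged from 96.2 to 169.4 CPM with a median of 136 at GD45, from 168.9 to 213.5 with a median of 187 at GD60, and from 377 to 515 with a median of 446 at GD90. Female GD45 replicate 12 touched the GD60 range, and otherwise the days were apart, with the lowest GD90 library far above the highest at GD60. The log2 fold change was 0.53 ± 0.12 (1.44-fold, adjusted p = 0.00609) and then 1.24 ± 0.12 (2.35-fold, adjusted p = 6.49e-07) by edgeR. In the first step it was 0.53 in females and 0.53 in males with adjusted p of 0.0751 and 0.0862, and in the second it was 1.39 ± 0.17 in females and 1.08 ± 0.17 in males with adjusted p of 2.22e-05 and 0.00021. In CPM, which leaves out TMM factors, the lowest GD45 values were those of replicates 18 and 17, of the GD45 litter of 8. The fit scaled these libraries by factors of 1.07 and 0.848, which raises replicate 17 relative to the others of its day. Without both libraries the first step was 0.42 (adjusted p = 0.00752, edgeR).

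LDHB was not called at either step. It ranged from 475 to 561.5 CPM with a median of 539 at GD45, from 395 to 537 with a median of 445 at GD60, and from 437 to 614 with a median of 506 at GD90. All days overlapped, with 4 of the 6 GD60 libraries below all GD45 libraries. The log2 fold changes were -0.21 ± 0.12 (adjusted p = 0.239) and 0.20 ± 0.12 (adjusted p = 0.176) by edgeR. The second step passed without female GD60 replicate 15 (0.30, adjusted p = 0.0331).

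The LDHB to LDHA ratio fell at each step. Per exon length, LDHB exceeded LDHA by 10.6 to 16.0 times at GD45, 6.52 to 8.65 times at GD60 and 3.48 to 3.99 times at GD90, with medians of 12.5, 7.88 and 3.79. As plain counts the medians were 3.92, 2.47 and 1.19. The row lengths cover all annotated exons, 1358 bases for LDHB and 4337 for LDHA, where 9 of 17 exons had counts. The size of the excess therefore depends on the annotation, while the change between days does not depend on length. The days did not overlap, and the GD90 libraries were the tightest set. The mean log2 ratio of counts was 2.02 ± 0.25 (SD, n = 6) at GD45, 1.26 ± 0.18 at GD60 and 0.24 ± 0.07 at GD90, steps of -0.76 and -1.02 on the log2 scale. Each had a two-sided exact permutation p of 0.00216, the smallest that 6 against 6 libraries can give, and 0.00433 adjusted over 4 tests. With counts from the exon table the first step lost its call (-0.71, adjusted exact permutation p = 0.101) and the second kept it (-1.41, adjusted exact permutation p = 0.00433). The means of the sexes were close at each day, 2.02 and 2.02 at GD45, 1.22 in females and 1.30 in males at GD60, and 0.27 and 0.21 at GD90.

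**Figure D3:**
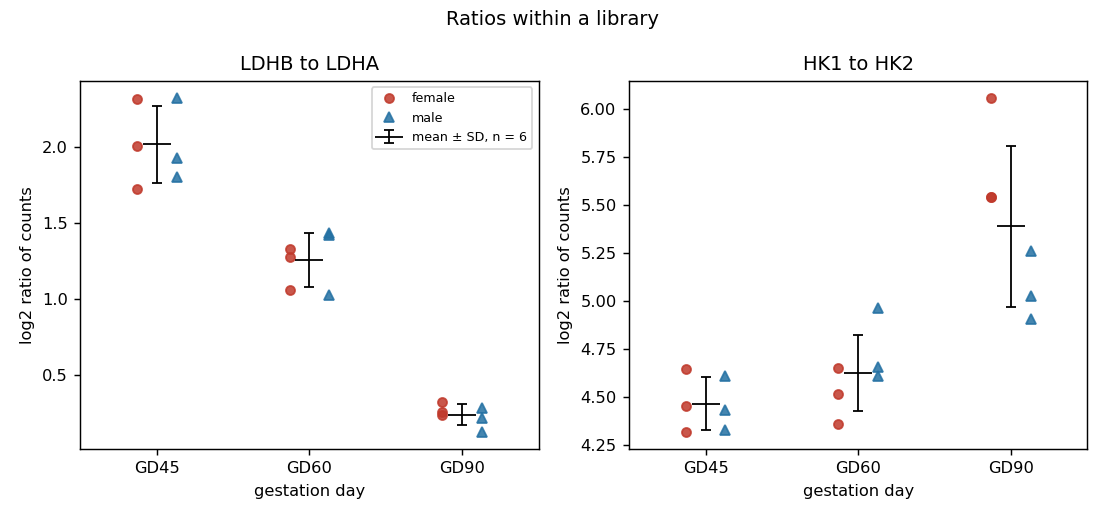
Log2 ratios of counts within each library by gestation day, LDHB to LDHA on the left and HK1 to HK2 on the right, with red circles for females, blue triangles for males, and the black dash and bar for the mean ± SD of 6 libraries; the axes do not start at 0. The LDHB to LDHA ratio falls from a mean of 2.02 to 1.26 and 0.24 without overlap between days, and the HK1 to HK2 ratio rises to a mean of 5.39 at GD90 with the 3 females above the 3 males.

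Counted together, 2 of the 10 genes were called at GD60 against GD45, LDHA higher and SLC2A3 lower, where 16.7% of all rows tested were called (9.35% higher and 7.37% lower). At GD90 against GD60, 5 of 10 were called, against a background of 42.4% (21.4% higher and 20.9% lower). LDHA, SLC16A1, SLC2A3 and HK1 were higher and HK2 was lower. These shares lie near the background, and the count by itself does not set the 10 genes apart. A member that was not called is not thereby shown to be unchanged. Their median log2 fold change was 0.01 at the first step and 0.31 at the second, beside -0.007 and -0.011 over all rows tested. In whole brain, fewer cells of a type and less RNA per cell cannot be told apart.

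Within each sex, no member was called at GD60 against GD45, by edgeR's quasi-likelihood test, in females (0 of 10, where 7.22% of all rows were called) or in males (0 of 10, against 5.6%). At an unadjusted p under 0.05 there were 2 in each sex, and DESeq2 called 1 in each, LDHA. At GD90 against GD60, 5 of 10 were called in females (27.1% of all rows), with LDHA, SLC16A1, HK1 and SLC2A3 higher and HK2 lower. In males 4 of 10 were called, all higher (34.5% of all rows), namely LDHA, SLC16A1, SLC2A3 and SLC16A7. HK1 in males (0.27 ± 0.12, adjusted p = 0.0859) passed with DESeq2 (0.0482) and with only the libraries compared (0.0425). The count in females was 8 without male GD45 replicate 17, and that in males was 2 without male GD90 replicate 10. The smaller calls within a sex were the less firm. In females, HK1 and SLC2A3 had adjusted p of 0.104 and 0.0836 with library size alone, without TMM factors. The SLC2A3 call was also lost without female GD60 replicate 3 (0.0735) or 5 (0.0864) or female GD90 replicate 9 (0.0759), and the HK1 call without female GD60 replicate 15 (0.0669) or female GD90 replicate 7 (0.0583). In males, the SLC2A3 call was lost without male GD60 replicate 4 (0.0558) or 6 (0.0953) or male GD90 replicate 8 (0.0565) or 10 (0.0945).

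**Figure D4:**
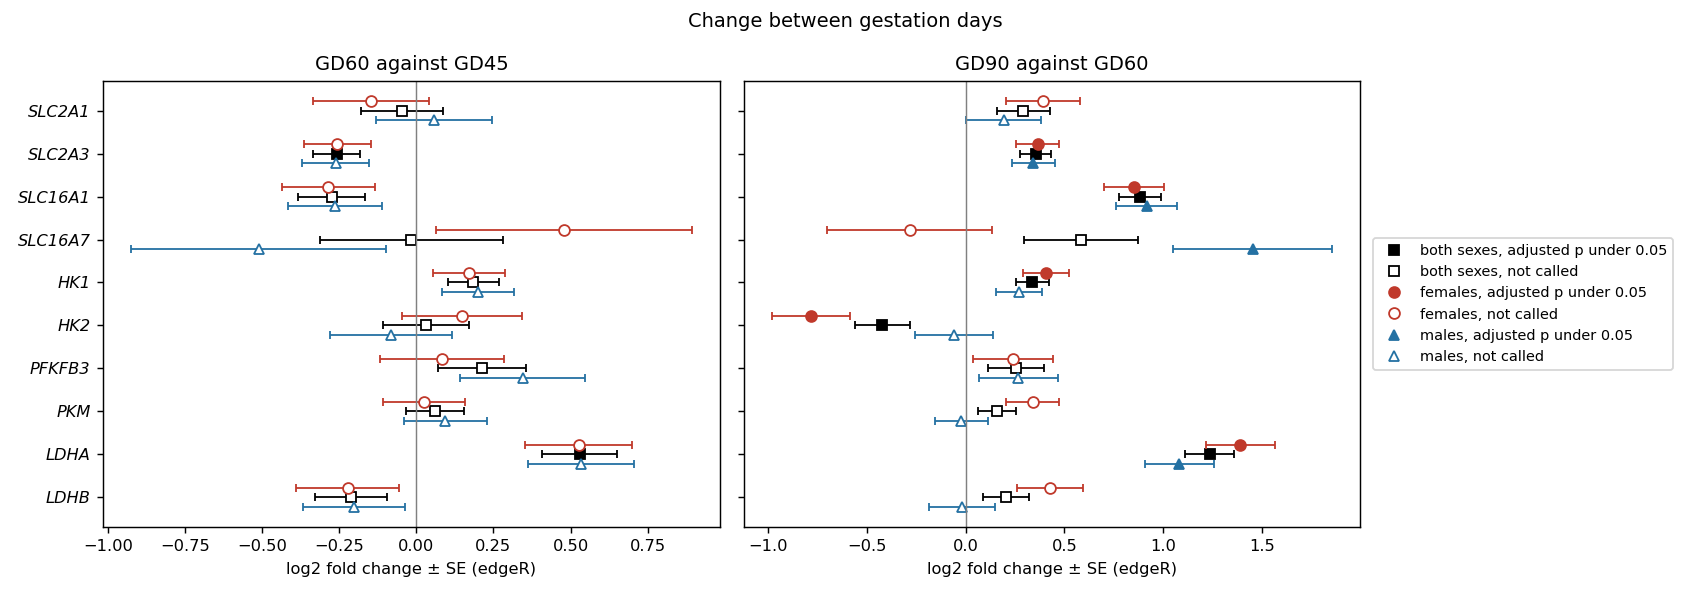
Log2 fold changes with their SE from edgeR for GD60 against GD45 (left) and GD90 against GD60 (right), in both sexes together (squares), females (circles) and males (triangles), with filled symbols for an adjusted p under 0.05. At the later step LDHA (1.24) and SLC16A1 (0.88) are the largest called rises over both sexes and HK2 (-0.42) is the called fall.

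No member differed between males and females at GD45, GD60 or GD90 by edgeR's quasi-likelihood test (0 of 10 each, where 0.0919%, 0.098% and 0.098% of all rows were called). At an unadjusted p under 0.05 there were 0, 0 and 3 members, the 3 being SLC16A7, HK2 and LDHB at GD90, and DESeq2 called 0 at each day. The interaction of sex and day called 0 of 10 members at both steps, and 0.0% of all rows were called. At an unadjusted p under 0.05 it had 0 members at the first step and 2, SLC16A7 and HK2, at the second, and DESeq2 again called 0.

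Levels were compared between genes only per length, as CPM per 1000 exon bases (FPKM), for the 9 genes with a row of their own. The row lengths cover all annotated exons, some of them without counts, so levels and ranks depend on the annotation. LDHB had the highest level at each day, at 387 ± 28.6 (SD, n = 6), 335 ± 41.6 and 381 ± 48.3 FPKM, above 99.4% of the genes tested on the mean of all libraries. PKM came next at 99.7 ± 3.20, 104.4 ± 8.49 and 114 ± 8.99 FPKM, with a row length that includes the upstream exons. LDHA moved from rank 4 at GD45 (30.2 ± 5.82 FPKM), where its range overlapped that of SLC2A3, to rank 3 at GD90 (101 ± 11.5 FPKM), where it overlapped that of PKM. HK1 was at 53.6 ± 6.89, 61.0 ± 6.98 and 75.2 ± 2.84 FPKM. SLC2A3 followed with means of 21.6, 18.0 and 22.5 FPKM, and PFKFB3 with 8.86, 10.2 and 11.9 FPKM. SLC16A1 and HK2 overlapped at GD45 (3.30 ± 0.55 and 2.89 ± 0.44 FPKM) and GD60, and were apart at GD90 (4.90 ± 0.20 and 2.20 ± 0.60 FPKM). The row length of SLC16A1 includes the exons of its second copy, which held few counts, so its level is understated. SLC16A7 was lowest throughout, at 0.138 to 0.225 FPKM, above 4.71% of the genes tested.

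The genes whose pattern was most like that of a member were taken by the smallest root mean square difference of log2 CPM over the 18 libraries, each gene centred on its own mean. For LDHA they were KCNG1 (0.165), SYN1 (0.165) and FAIM2 (0.170), where the SD of LDHA itself was 0.795. For SLC16A1 they were ALDH6A1 (0.132), SBDS (0.144) and CBR4 (0.149) beside an SD of 0.415. HK1 was closest to SDC3 (0.084), MAP4 (0.086) and MFN2 (0.093), PKM to TMEM9B (0.077), and LDHB to SLC25A3 (0.077), PRDX3 (0.080) and ISCU (0.086). For SLC2A3 they were DDX1 (0.114), GRSF1 (0.131) and SNX9 (0.134), and for SLC2A1 GSK3A (0.143), PAPSS1 (0.145) and ZDHHC5 (0.152). For PFKFB3 they were LARP1 (0.121), FRMPD3 (0.133) and CACNG2 (0.139), and for HK2 BEND7 (0.162), PRPF8 (0.185) and KCNK3 (0.198). SLC16A7 had no close match (AGO2 0.389, PRTG 0.389 and AGAP1 0.39).

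Of 24 remaining glycolytic enzymes, 21 could be tested, and most were not called at either step. At GD60 against GD45, 4 rose, 1 fell and 16 were not called, with a median log2 fold change of 0.07, where 16.7% of all rows were called. The rises named by size were PFKFB1 (1.44 ± 0.44), TIGAR (0.33 ± 0.10) and PFKP (0.33 ± 0.10), and the fall was ENO3 (-0.88 ± 0.18), the muscle enolase. PFKFB1 was barely detected, with 1 to 48 counts per library (0.0659 to 3.17 CPM). At GD90 against GD60, 9 rose, 1 fell and 11 were not called, with a median of 0.31, where 42.4% of all rows were called. The 9 include ALDOC (0.72 ± 0.28, adjusted p = 0.0496), at a mean of 0.84 CPM at GD60 and 1.34 at GD90, a row that shares most of its exon bases with other rows and whose counts cannot be read as its level. The largest rises were TIGAR (1.09 ± 0.10, adjusted p = 2.95e-07), a fructose bisphosphatase that opposes PFKFB3, PFKFB2 (1.08 ± 0.16, adjusted p = 5.21e-05), of the same family as PFKFB3, and, tied, PFKP (1.00 ± 0.10, adjusted p = 1.11e-06), the platelet phosphofructokinase, and PGAM1 (1.00 ± 0.18, adjusted p = 0.000299), a phosphoglycerate mutase. Of the exon bases of PGAM1 and PFKFB1, 69.5% and 45.3% also lay in exons of other rows.

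The genes that could not be tested included some that every cell uses. GAPDH held 1 to 9 counts per library and ALDOA 2 to 11. Of the exon bases of the GAPDH row, 94.9% also lay in exons of another row on the opposite strand, and 81.0% of those of ALDOA and 82.9% of those of ALDOC (8 to 28 counts) lay in exons of other rows. These counts cannot be read as levels of the genes. Among the 10 members, SLC16A1 was the one whose row overlapped another (6.99%).

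None of the other transporters for sugars and monocarboxylates was called by edgeR at GD60 against GD45 (0 of 11 tested of 14, median 0.03), where 16.7% of all rows were called. At GD90 against GD60, 5 rose and 3 fell, where 21.4% of all rows were called higher and 20.9% lower. SLC2A13, a proton and myo-inositol carrier, rose by 2.16 ± 0.48 on the log2 scale from a mean of 1.87 to 8.49 CPM, SLC16A3, the lactate exporter MCT4, by 1.40 ± 0.18 from 10.6 to 26.6 CPM, and SLC2A6 by 0.88 ± 0.12, with a median of 0.32 over the list. SLC2A5, the fructose carrier GLUT5, changed by -1.07 ± 0.16 from 24.3 to 11.3 CPM, SLC2A12 by -0.60 ± 0.21, and TXNIP, which restrains glucose uptake, by -0.48 ± 0.14.

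Of the genes of pyruvate entry into mitochondria, 8 of 13 tested were called at the later step, all higher, where 21.4% of all rows were called higher. At GD60 against GD45, 0 of 13 tested were called (median -0.0), where 16.7% of all rows were called. At GD90 against GD60, the other 5 were not called (median 0.28). PDK3, a kinase that switches pyruvate dehydrogenase off, changed most (0.86 ± 0.13, adjusted p = 6.13e-05), followed by PDHA1 (0.54 ± 0.10, adjusted p = 0.000486), the catalytic subunit, and PDP2 (0.43 ± 0.08, adjusted p = 0.000532), a phosphatase that switches it on.

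LDHA and several other glycolytic genes are targets of hypoxia-inducible factors. The part of that pathway in the values of LDHA was not tested. Its list holds both factors and their regulators, so its median is not a measure of activity. Over all rows, 16.7% were called at GD60 against GD45 and 42.4% at GD90 against GD60 (21.4% higher and 20.9% lower). At GD60 against GD45, HIF3A alone was called among 9 genes of the factors and their regulators (-0.32 ± 0.10), and the median of the list was 0.07. At GD90 against GD60, EPAS1 (0.79 ± 0.10) and EGLN3 (0.64 ± 0.15) rose, and 4 fell, led by VHL (-1.09 ± 0.17), HIF3A (-0.43 ± 0.10) and HIF1AN (-0.31 ± 0.08). The median was -0.2, and HIF1A was not called (-0.20 ± 0.13, adjusted p = 0.254, edgeR). Among 10 targets outside glycolysis, ADM (0.66 ± 0.17), VEGFA (0.61 ± 0.14) and NDRG1 (0.47 ± 0.08) rose in the first step. In the second, P4HA1 (0.91 ± 0.13) and VEGFA (0.44 ± 0.14) rose and 5 fell, led by ANKRD37 (-0.73 ± 0.19), KDM3A (-0.45 ± 0.12) and DDIT4 (-0.41 ± 0.10). The medians of the 10 targets were -0.01 and -0.22.

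Markers of several cell types changed over the same days, and their part in the values above was not tested. For the marker counts here and below, 9.35% of all rows were called higher and 7.37% lower at the first step. At the later step these shares were 21.4% and 20.9%. Oligodendrocyte markers (6 of 7 in the table) summed to 65.5 to 106.5 CPM at GD45, 110 to 149 at GD60 and 1953 to 3310 at GD90, with MBP the highest over all libraries. Astrocyte markers (6 of 7) summed to 187 to 399, 435 to 617 and 1627 to 2174 CPM, with GFAP the highest over all libraries, and all 6 of each list were called higher at the later step. Brain endothelial markers (8 of 9), from the cells of the blood-brain barrier, led by CLDN5, summed to 350.2 to 464, 368 to 494.5 and 437.5 to 568 CPM, with 3 of 8 called higher at the later step, and pericyte markers (5 of 5), led by PDGFRB, to 103 to 168.5, 126 to 159 and 183 to 220.0 CPM, with 2 of 5 called higher. Microglia markers (7 of 7), led by CSF1R, summed to 79.2 to 114, 98.7 to 135 and 155 to 230 CPM, with 6 of 7 called higher at the later step.

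Progenitor markers (8 of 10), led by TOP2A, went the other way, summing to 389 to 593, 194.5 to 265 and 102 to 152.5 CPM, with 7 of 8 called lower at the first step and 8 of 8 at the second. Neuron markers, led by TUBB3, were called higher for 4 of 8 at the first step and for 5 of 8 at the second, with 1 of 8 lower. TUBB3 itself had means of 4199 CPM at GD45, 4488 at GD60 and 3404 at GD90, so it was lower at GD90 than at GD60. Choroid plexus markers (5 of 5), led by TTR, summed to 936 to 1521, 682 to 1162 and 411 to 923 CPM, with 1 and then 3 of 5 called lower. Erythroid markers (6 of 7), led by HBB, summed to 266.5 to 671, 162 to 308 and 95.2 to 173.5 CPM, with 3 of 6 called lower at each step. No listed marker in the table was at 3 counts or fewer in all libraries of a day.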

How the data were processed

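Total RNA of 18 fetal brains was sequenced, with mRNA enriched by oligo(dT), and the authors trimmed the reads (Trimmomatic), aligned them to Sscrofa11.1 (HISAT2) and counted them on Ensembl genes, exons and transcripts (featureCounts). They deposited raw counts without normalization. The settings for strand, for reads with several matches and for reads shared by features are not given in the sources used here. Libraries with 2 runs (4 of 18, 22 columns in all) were summed, and 0 columns of samples were left unused. The transcript table was not used. The gene table itself named 16719 genes, and 782 more were named by their identifier.

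The members and the gene lists were chosen with earlier results of these data known. SLC2A3 and LDHB were located by RefSeq position and SLC2A1 and the common exons of PKM by exon sums, choices made after the files were seen. Genes kept by filterByExpr (16325, with 99.9% of the counts) and 3 exon sums were fitted together with edgeR 4.0.16 in R 4.3.3 (TMM factors, 1 model of 6 groups of sex and day, quasi-likelihood F test, Benjamini-Hochberg adjustment over all 16328 rows, threshold 0.05). SE is the log2 fold change divided by the square root of F. CPM and FPKM used library totals without TMM factors, and log2 CPM a prior count of 2. Ratios were log2 ratios of counts with 0.5 added to both, tested by exact permutation of 6 against 6 libraries, two-sided, adjusted over 4 tests.

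All 10 members were named. Of the pathway lists, up to 3 called rises and 3 called falls by size were named at each step over both sexes, and of each marker list the highest gene. For each member the 3 most alike genes with a symbol were named. Some genes that these rules name are not reported here. GAPDH, ALDOA, ALDOC and HIF1A were named after their values were seen. The fit was tested on simulated counts. Alternatives were DESeq2 1.42.0, edgeR's likelihood ratio test, RLE factors, library size alone, no filter, more than 1 CPM in 3 libraries, first runs, only the libraries compared, littermates summed, the GD45 litter of 8 left out, a replicate block for litter, and leaving out the 18 libraries in turn.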

Additional observations from a re-analysis of the deposited data

Results flagged for a closer look

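In 42 sets of 6 libraries (12 measures at 3 days and 2 ratios at 3 days), 4 had a highest or lowest library whose gap to the next took more of the whole range than Dixon's critical value for 6 allows, and chance gives about 1 in 20. PFKFB3 was at 48.8 CPM in male GD45 replicate 17 (gap 0.706 of the range) and at 57.0 CPM in female GD60 replicate 15 (gap 0.641). The common exons of PKM were at 130.8 CPM in male GD45 replicate 17 (gap 0.686), and HK1 was at 518.5 CPM in female GD90 replicate 7 (gap 0.702). These CPM were without TMM factors, and the factor of male GD45 replicate 17 was low, at 0.848. Whether its values stand apart after that scaling was not tested.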

How the results depend on the processing

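The 2 members called at GD60 against GD45 became 1 with no filter on low counts, with only the libraries compared, with littermates summed and by the name in the gene table only, and ranged from 1 to 3 with each library left out. In females at that step 0 became 1 with DESeq2 and with the likelihood ratio test (0 to 1 with each library left out). In males 0 became 1 with DESeq2 and without the GD45 litter of 8 (0 to 1). At GD90 against GD60, the 5 called over both sexes ranged from 4 to 7 over all alternatives run, the 5 in females ranged from 4 to 8 (8 without male GD45 replicate 17) and the 4 in males from 2 to 5 (2 without male GD90 replicate 10, 5 with DESeq2, with only the libraries compared and with PKM by its common exons). With litter as a replicate block the sex comparisons and interactions called 0 members, as without it. With the mean of a litter, 3 against 3, no exact permutation p can go below 0.10, and the ratio steps of -0.76, -1.02 and 0.76 had an adjusted 0.133. With exon table counts the LDHB to LDHA step at GD60 was -0.71 (adjusted exact permutation p = 0.101), and with LDHB read from the row of that name the steps were -1.02 and -0.94 (adjusted exact permutation p = 0.481). The HK1 to HK2 step at GD60 ranged from 0.09 to 0.21 with each library left out. The causes of these differences were not tested. PKM by its common exons, LDHB by its named row and members by name alone were chosen after seeing the data. The share of the exclusive PKM exons was not run, since they held 0 counts.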
